A study of Mus musculus with 24 samples.

Results

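Kidneys of cKOm and cKOf mice were compared, 6 of each, in which deletion of Pex5 in the tubule had been induced in the same way in both sexes. Pex5 is the receptor that brings enzymes into peroxisomes. The question was which transcripts that depend on sex hormones in the tubule still differed between males and females after this deletion. Of 55335 gene identifiers in the deposited counts, 50970 lay on autosomes, and the 13513 with at least 1 CPM (read counts scaled to a common library size with TMM factors) in at least 6 of these 12 kidneys were tested. The 12 kidneys are part of 24 from adult C57BL/6J mice, and the other 12 were Ctrlm and Ctrlf kidneys, 6 of each, which served here to show where cKO mice differed. All mice were Pex5lox/lox. The cKO mice also carried Pax8-rtTA and LC1, which make Cre recombinase in Pax8-expressing cells, mainly of the tubule, when doxycycline (DOX) is given, and Ctrl mice were littermates without these transgenes. The study describes the excision as less complete in cKOf than in cKOm mice. By electron microscopy it found peroxisomes virtually absent from the proximal tubules of both sexes. In every comparison that follows, the sex of cKO mice and the extent of the deletion therefore cannot be told apart. DOX was given to all mice at the age of 8 weeks and for 2 weeks, and whole kidneys were taken 4 weeks after it ended. RNA came from all cells of the kidney, and hormone levels and the stage of the oestrous cycle are not part of the data used here.

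The mouse kidney is among the organs whose transcripts differ most between the sexes. Testosterone acts on proximal tubule cells and raises transcripts such as Kap, Cyp2e1 and Slc7a13, while another set, with the prolactin receptor and several conjugating enzymes and efflux pumps in it, is higher in females. The proximal tubule is also where peroxisomes of the kidney are most abundant, and they shorten very long and branched fatty acids, oxidise hydroxy acids and take part in ether lipid synthesis.

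Reads counted on genes numbered 19376152 to 25240390 per cKO kidney (medians of 21528283 in cKOm and 20386767 in cKOf mice). The floor for detection, 3 counts, came to between 0.1189 and 0.1548 CPM and covers counting error only. The values matched the labelled sex in all 12 cKO kidneys: Xist, the RNA of the inactive X chromosome, ranged from 460 to 992 CPM in cKOf and reached at most 0.349 CPM in cKOm kidneys, and Ddx3y, Uty, Eif2s3y and Kdm5d of the Y chromosome showed the reverse. Pex5 on chromosome 6 of GRCm38 (124396816 to 124415067) was at 43.3 CPM on average in cKOm and 43.4 CPM in cKOf kidneys (two-sided exact permutation test, p = 0.957, n = 6 per group), and the sexes overlapped. Its reads were counted over all exons and from cells with and without the deletion, so they do not show how complete the deletion was in either sex. One cKOf kidney (replicate 6) stood apart, with 623 genes more than 2-fold from the median of its group, against 166 to 309 in the other 11 cKO kidneys. One cKOm kidney (replicate 4) had the highest level of liver transcripts (Alb at 234 CPM). The main counts are therefore also given without these cKO kidneys. Among Ctrl kidneys, Ctrlm replicate 5 (605 genes), Ctrlf replicate 1 (492) and Ctrlf replicate 4 (433) stood furthest apart by the same measure. The range of counts with single Ctrl kidneys left out is given at the end.

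In total, 1260 of 13513 genes (9.32%) differed between cKOm and cKOf kidneys at an adjusted p of 0.05 by edgeR's quasi-likelihood test with Benjamini-Hochberg adjustment. Of these, 601 (4.45%) were higher in cKOm and 659 (4.88%) in cKOf kidneys, and 3102 genes had an unadjusted p below it. The kidneys of the sexes did not overlap for 1027 genes (7.6%), of which 525 (3.89%) were higher in every cKOm kidney and 502 (3.71%) in every cKOf kidney, the background for each statement on overlap in what follows. The number of genes called was 1076 without cKOf replicate 6 and 1086 without cKOm replicate 4. Differences of more than 2-fold were found for 132 genes higher in cKOm and 136 higher in cKOf kidneys, and of more than 8-fold for 14 and 16 genes. Between Ctrlm and Ctrlf kidneys, which are other mice, 2428 of the same genes (18%) passed, 1280 (9.47%) higher in Ctrlm and 1148 (8.5%) higher in Ctrlf kidneys. The genes that differed in the same direction in both genotypes numbered 750, which was 30.9% of the Ctrl calls and 59.5% of the cKO calls. Over the genes called in Ctrl kidneys, the median difference was 0.51 on the log2 scale in Ctrl kidneys and 0.22, in the same direction, in cKO kidneys. Over the genes called in cKO kidneys it was 0.54 in cKO and 0.44 in Ctrl kidneys, so each median was larger in the genotype in which its genes had been chosen, and nothing is read from either. Over all 13513 genes the median absolute log2 difference was 0.15 in cKO and 0.17 in Ctrl kidneys. With the 12 kidneys of each comparison fitted alone, 1605 genes passed in cKO and 1844 in Ctrl kidneys. The gap between 1260 and 2428 calls thus depended on the model.

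Whether the sex difference itself differed by genotype was tested by the interaction of sex and genotype in the same model, which uses all 24 kidneys and so shares samples with both comparisons. It passed for 367 genes (2.72%), and in 305 of these the difference between the sexes was the smaller one in cKO kidneys. The male minus female difference was higher in cKO kidneys for 111 (0.821%) and lower for 256 (1.89%). Of the 367, 202 were called in Ctrl kidneys only, 110 in both genotypes, 45 in cKO kidneys only and 10 in neither. Liver transcripts were high in most Ctrlm kidneys (hepatocyte markers summed to 105 to 1040 CPM, with a median of 729, against a median of 103 in Ctrlf), and with their level as a covariate 1605 Ctrl genes, 1265 cKO genes and 267 interactions passed.

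**Figure D1:**
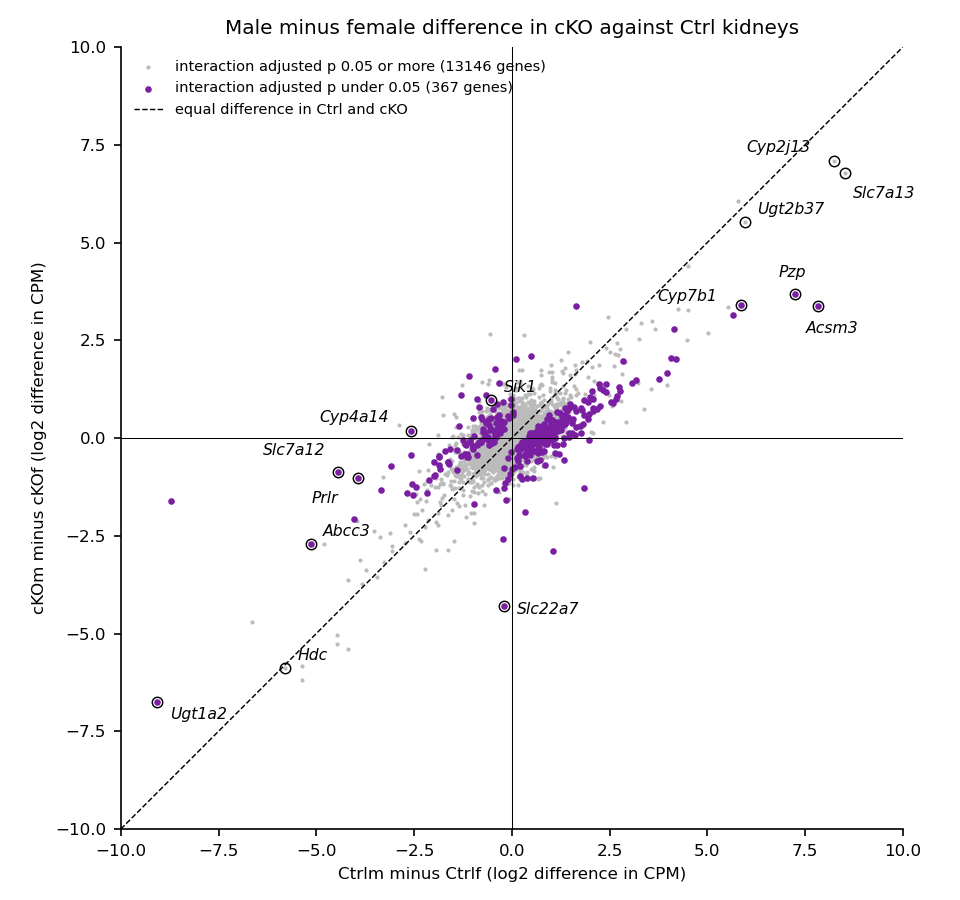
Each point is 1 of 13513 autosomal genes, placed by its male minus female log2 difference in CPM in Ctrl kidneys (horizontal axis) and in cKO kidneys (vertical axis). Purple points are the 367 genes with an interaction and the dashed line marks equal differences. Slc7a13 and Cyp2j13 sit far to the upper right, Ugt1a2 and Hdc far to the lower left, and Slc22a7 lies near 0 on the Ctrl axis and at -4.29 on the cKO axis.

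Among 17 gene lists of transport, metabolism and hormone action, androgen-induced transcripts had the largest share of differences. Lists and members were chosen with earlier results of these data known, so the shares describe the lists and are not a test. The background for every list is the share of all genes called, 9.32% in cKO and 18% in Ctrl kidneys. In cKO kidneys it was 4.45% for genes higher in cKOm and 4.88% for genes higher in cKOf. Of the 21 genes in a list of transcripts raised by androgens in the mouse kidney, 20 were tested, and 14 of the 20 (70.0%, against 9.32% of all genes) differed between cKOm and cKOf kidneys, 13 higher in cKOm and 1, Slc22a7, higher in cKOf kidneys. Their median log2 difference was 1.84 in cKO kidneys and 3.18 in Ctrl kidneys, where 19 of the 20 were called and all 19 were higher in males. The one not called in Ctrl kidneys was Slc22a7 (log2 difference -0.19, edgeR adjusted p = 0.685). It was listed as androgen-induced, which the Ctrl kidneys of these data do not bear out. For 19 of the 20 the difference between the sexes was the smaller one in cKO kidneys, a share that was not counted over all genes. It was also the smaller one for 43 of 56 tested peroxisomal enzymes and transporters and for 12 of 23 distal salt transport genes. An interaction passed for 14 of the 20 (70.0%, against 2.72% of all genes). The count in cKO kidneys was the same, 13 higher and 1 lower, without cKOf replicate 6, without cKOm replicate 4 and with liver transcripts as a covariate.

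The largest remaining differences were those of Cyp2j13, a cytochrome P450 of the arachidonic acid epoxygenase family, and Slc7a13, a transporter for cystine and acidic amino acids in the straight proximal tubule. Cyp2j13 (chromosome 4, 96027534 to 96077546) ranged from 131 to 187 CPM (median 161) in cKOm and from 0.178 to 3.35 CPM (median 0.884) in cKOf kidneys. Every cKOm kidney was far above every cKOf kidney, where the transcript was close to the floor in some mice. Its log2 difference was 7.09 (standard error 0.4, edgeR adjusted p = 6.81e-13), and in Ctrl kidneys it was 8.23. Slc7a13 (chromosome 4, 19818725 to 19842218) ranged from 121 to 224 CPM (median 169) in cKOm and from 0.0995 to 5.47 CPM (median 0.893) in cKOf kidneys, again without overlap. The log2 difference was 6.78 (standard error 0.48, edgeR adjusted p = 5.68e-11), against 8.52 in Ctrl kidneys. For neither gene did the interaction pass (adjusted p = 0.335 and 0.157), although the medians of Cyp2j13 and Slc7a13 were 391 and 839 CPM in Ctrlm kidneys.

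The 250 bases upstream of the start sites of the genes with the largest difference in each direction are shown, from RefSeq on GRCm38.p6, 5′ to 3′, since both genes kept a difference of over 8-fold. Cyp2j13 lies at chr4:96077541-96077790, minus strand, and Ugt1a2, the female-higher gene described further on, at chr1:88200361-88200610, plus strand. They were searched on both strands for the full androgen response element, its core ACANNNTGT (which lies within the full element), a STAT5 site TTCNNNGAA and a PPAR response element. None of the 4 was found in these windows. The next in size of difference with a promoter in the table were Ugt2b37 and Pzp, higher in cKOm, and Igf2 and Hdc, higher in cKOf kidneys. The windows of Ugt2b37, Pzp and Igf2 held none of the 4. That of Hdc held the core, 143 to 135 bases upstream of the start, and none of the others.
Cyp2j13: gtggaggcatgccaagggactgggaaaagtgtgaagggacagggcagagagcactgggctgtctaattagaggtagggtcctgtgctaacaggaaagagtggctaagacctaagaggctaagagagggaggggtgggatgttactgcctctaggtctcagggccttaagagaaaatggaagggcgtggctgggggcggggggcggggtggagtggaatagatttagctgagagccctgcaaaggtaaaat
Ugt1a2: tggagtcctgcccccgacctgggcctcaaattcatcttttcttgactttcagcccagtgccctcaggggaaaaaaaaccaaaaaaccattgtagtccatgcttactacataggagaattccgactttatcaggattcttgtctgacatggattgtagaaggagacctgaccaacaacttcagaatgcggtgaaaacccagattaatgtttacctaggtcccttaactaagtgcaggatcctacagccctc
The core stood in 3.68% of the 10264 promoters of tested genes in the table (76.0% of tested genes), in 12 of 93 (12.9%) of those more than 2-fold higher in cKOm and in 10 of 98 (10.2%) of those more than 2-fold higher in cKOf kidneys. The STAT5 site stood in 6.1%, 4.3% and 9.18% of the same promoters. A match of these letters is a description of the sequence and not a binding site, and the absence of a match says only that the letters are not in this window.

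Slc22a28 and Slc22a30, organic anion transporters of a cluster on chromosome 19, also remained far apart between the sexes. Slc22a30 ranged from 36.7 to 64.1 CPM (median 46.7) in cKOm and from 1.44 to 8.7 CPM (median 4.68) in cKOf kidneys (log2 difference 3.28, SE 0.27, edgeR adjusted p = 1.8e-09). Slc22a28 ranged from 24.7 to 44.2 CPM (median 32.2) in cKOm and from 2.19 to 7.1 CPM (median 4.85) in cKOf kidneys (log2 difference 2.79, SE 0.23, edgeR adjusted p = 1.89e-09). In neither gene did the groups overlap, and in neither did the interaction pass (adjusted p = 0.0696 and 0.168). Slc22a29, which lies between them, went the other way and ranged from 1.89 to 5.7 CPM (median 4.01) in cKOm and from 16.9 to 31.4 CPM (median 21) in cKOf kidneys (log2 difference -2.53, SE 0.33, edgeR adjusted p = 5.13e-06), again with no overlap and no interaction past the threshold (adjusted p = 0.429). These neighbours are close in sequence, so reads that fit several of them were not counted and their levels are less certain than those of single genes.

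The promoters of these 3 neighbours are shown because neighbours that hold the same core upstream of their start sites differed between the sexes in opposite directions. Slc22a28 lies at chr19:8131983-8132232, minus strand, Slc22a29 at chr19:8218901-8219150, minus strand, and Slc22a30 at chr19:8405106-8405355, minus strand (RefSeq, GRCm38.p6). The androgen response element core is in capitals and reads the same in all 3.
Slc22a28: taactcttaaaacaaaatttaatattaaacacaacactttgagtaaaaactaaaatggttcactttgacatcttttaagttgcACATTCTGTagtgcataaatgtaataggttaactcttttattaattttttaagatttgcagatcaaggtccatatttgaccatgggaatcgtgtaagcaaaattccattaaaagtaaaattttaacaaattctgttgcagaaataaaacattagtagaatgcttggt
Slc22a29: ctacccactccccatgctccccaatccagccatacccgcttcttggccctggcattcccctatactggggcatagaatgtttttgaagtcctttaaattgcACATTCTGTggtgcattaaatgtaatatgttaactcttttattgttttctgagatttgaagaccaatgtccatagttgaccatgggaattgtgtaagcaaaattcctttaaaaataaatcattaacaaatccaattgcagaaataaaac
Slc22a30: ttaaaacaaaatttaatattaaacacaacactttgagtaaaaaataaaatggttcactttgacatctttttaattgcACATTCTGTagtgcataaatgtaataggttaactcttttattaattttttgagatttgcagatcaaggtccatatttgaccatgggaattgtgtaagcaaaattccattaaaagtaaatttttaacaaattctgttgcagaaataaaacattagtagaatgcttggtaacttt
Aligned at the core without gaps, Slc22a28 and Slc22a30 were identical at 97.5% of 244 bases, Slc22a29 and Slc22a30 at 65.9% of 226 and Slc22a28 and Slc22a29 at 63.4% of 232. The core was found in 3 of 16 androgen-induced genes with a promoter in the table (18.8%), which were Slc22a28, Slc22a30 and Kap, and in genes higher in cKOf kidneys such as Hdc and Abcb1a, both described further on. The core is shown for these with up to 10 bases on each side, for Kap (chr6:133853688-133853716, minus strand), Hdc (chr2:126618803-126618831, minus strand) and Abcb1a (chr5:8567065-8567090, plus strand). For Kap and Hdc the RefSeq start lies inside the gene as GENCODE annotates it.
Kap: gggacagagtACAGGATGTataaaagccc
Hdc: tggtctaaaaACACCATGTtctctgattc
Abcb1a: gctggggtaaACATGCTGTcactatt
The promoters of the neighbours and these sites were chosen for display after the values of the genes were seen.

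A second group of androgen-induced transcripts remained higher in cKOm kidneys by a smaller margin than in Ctrl kidneys. Acsm3, a medium-chain acyl-CoA synthetase of mitochondria, ranged from 29.1 to 80.7 CPM (median 48.5) in cKOm and from 1.78 to 6.93 CPM (median 5.99) in cKOf kidneys, and from 487 to 1170 CPM in Ctrlm kidneys. It was thus higher in every cKOm than in every cKOf kidney (log2 difference 3.37, SE 0.34, edgeR adjusted p = 6.5e-08), but the difference minus that in Ctrl kidneys was -4.48 on the log2 scale (interaction adjusted p = 1.45e-06). Timd2, a membrane receptor for ferritin heavy chain, ranged from 4.83 to 10.7 CPM (median 7.05) in cKOm and from 0.622 to 2.66 CPM (median 1.94) in cKOf kidneys (log2 difference 2.01, SE 0.22, edgeR adjusted p = 1.84e-07). Cyp4b1, a fatty acid hydroxylase, ranged from 564 to 931 CPM (median 649) in cKOm and from 130 to 238 CPM (median 146) in cKOf kidneys (log2 difference 2.04, SE 0.25, edgeR adjusted p = 2.15e-06). Both were without overlap, and the interaction passed for both (adjusted p = 3.2e-05 and 0.000733). Cyp2e1, the ethanol-inducible P450, ranged from 690 to 1090 CPM (median 825) in cKOm and from 72.2 to 143 CPM (median 130) in cKOf kidneys (log2 difference 2.8, SE 0.24, edgeR adjusted p = 2.54e-09), with an interaction adjusted p of 0.0144. Cyp2d9 was the member of this group whose sexes overlapped, since it ranged from 12.1 to 44.1 CPM (median 26.3) in cKOm and from 4.51 to 17.3 CPM (median 6.93) in cKOf kidneys (log2 difference 1.67, SE 0.35, edgeR adjusted p = 0.00228). Its interaction adjusted p was 0.00645, and 0.0505 with liver transcripts as a covariate.

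Kap, the kidney androgen-regulated protein and one of the most abundant androgen-dependent transcripts of the proximal tubule, ranged from 4620 to 7790 CPM (median 7090) in cKOm and from 1760 to 4020 CPM (median 3020) in cKOf kidneys. The highest cKOf kidney was below the lowest cKOm kidney, and the log2 difference was 1.22 (standard error 0.21, edgeR adjusted p = 0.000222). Ctrlm kidneys held from 13500 to 31500 CPM, and the interaction adjusted p was 0.0348, past the threshold under 19 of 32 alternatives. Slc22a6, the main organic anion exchanger of the basolateral membrane, ranged from 407 to 544 CPM (median 489) in cKOm and from 285 to 403 CPM (median 356) in cKOf kidneys (log2 difference 0.46, SE 0.11, edgeR adjusted p = 0.00895). For Slc22a6 the interaction adjusted p of 0.0449 was past the threshold under 10 of the 32.

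The omega-hydroxylases Cyp4a12a and Cyp4a12b, which make the vasoactive eicosanoid 20-HETE, are near-identical copies and are read with that limit. Cyp4a12a ranged from 37.5 to 54.3 CPM (median 47.4) in cKOm and from 2.18 to 8.46 CPM (median 5.31) in cKOf kidneys (log2 difference 3.15, SE 0.36, edgeR adjusted p = 6.19e-07), and Cyp4a12b ranged from 32.4 to 43.4 CPM (median 36.2) in cKOm and from 6.15 to 13.3 CPM (median 7.71) in cKOf kidneys (log2 difference 2.12, SE 0.25, edgeR adjusted p = 1.12e-06). In Ctrlm kidneys the median was 42.6 CPM for Cyp4a12a and 7.55 CPM for Cyp4a12b, below that of cKOm kidneys for both. The mean of Cyp4a12a, however, was 69.7 CPM in Ctrlm (SD 47.0, n = 6) and 46.6 CPM in cKOm kidneys (SD 5.62, n = 6), since single Ctrlm kidneys reached up to 146 CPM. Its difference was smaller in cKO than in Ctrl kidneys (interaction adjusted p = 0.00605, and 0.0932 by limma-voom), and in females it stood at 5.26 CPM on average in cKOf (SD 2.34, n = 6) and 1.37 CPM in Ctrlf kidneys (SD 0.876, n = 6).

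For 6 tested members no difference was called between cKOm and cKOf kidneys. These were Odc1 (ornithine decarboxylase, the first enzyme of polyamine synthesis), Hsd11b1 (which regenerates active glucocorticoid), the transporters Slc22a2 and Slc22a12 (for organic cations and for urate), Nudt19 (a peroxisomal hydrolase of coenzyme A) and Gusb (the lysosomal beta-glucuronidase). Odc1 ranged from 471 to 623 CPM (median 579) in cKOm and from 403 to 513 CPM (median 465) in cKOf kidneys (log2 difference 0.29, SE 0.19, edgeR adjusted p = 0.38), and Slc22a12 ranged from 320 to 473 CPM (median 366) in cKOm and from 278 to 379 CPM (median 341) in cKOf kidneys (log2 difference 0.19, SE 0.11, edgeR adjusted p = 0.313). The sexes overlapped for all 6 in cKO kidneys, and their log2 differences lay between 0.11 and 0.31. In Ctrl kidneys all 6 were called, and for each but Gusb the interaction passed (Odc1 adjusted p = 0.00338, Slc22a12 adjusted p = 0.000239). That of Nudt19 was past the threshold under 18 of 32 alternatives and was lost with the liver covariate. With the 12 cKO kidneys fitted alone, Odc1 (adjusted p = 0.0276), Hsd11b1 (0.0303) and Gusb (0.0186) passed.

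Slco1a1, an organic anion transporter of the brush border that is strongly male-specific in mouse kidney, was the one member that could not be tested, because too few cKO kidneys reached 1 CPM. It ranged from 0.219 to 3.41 CPM (median 1.37) in cKOm and from 0 to 2.36 CPM (median 0.159) in cKOf kidneys (two-sided exact permutation test, p = 0.11, n = 6 per group). In Ctrl kidneys it ranged from 207 to 515 CPM in males and from 0 to 1.99 CPM in females (two-sided exact permutation test, p = 0.00216, below which 6 against 6 cannot go). Slco1a1 was therefore close to the female level in both sexes of cKO mice.

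**Figure D2:**
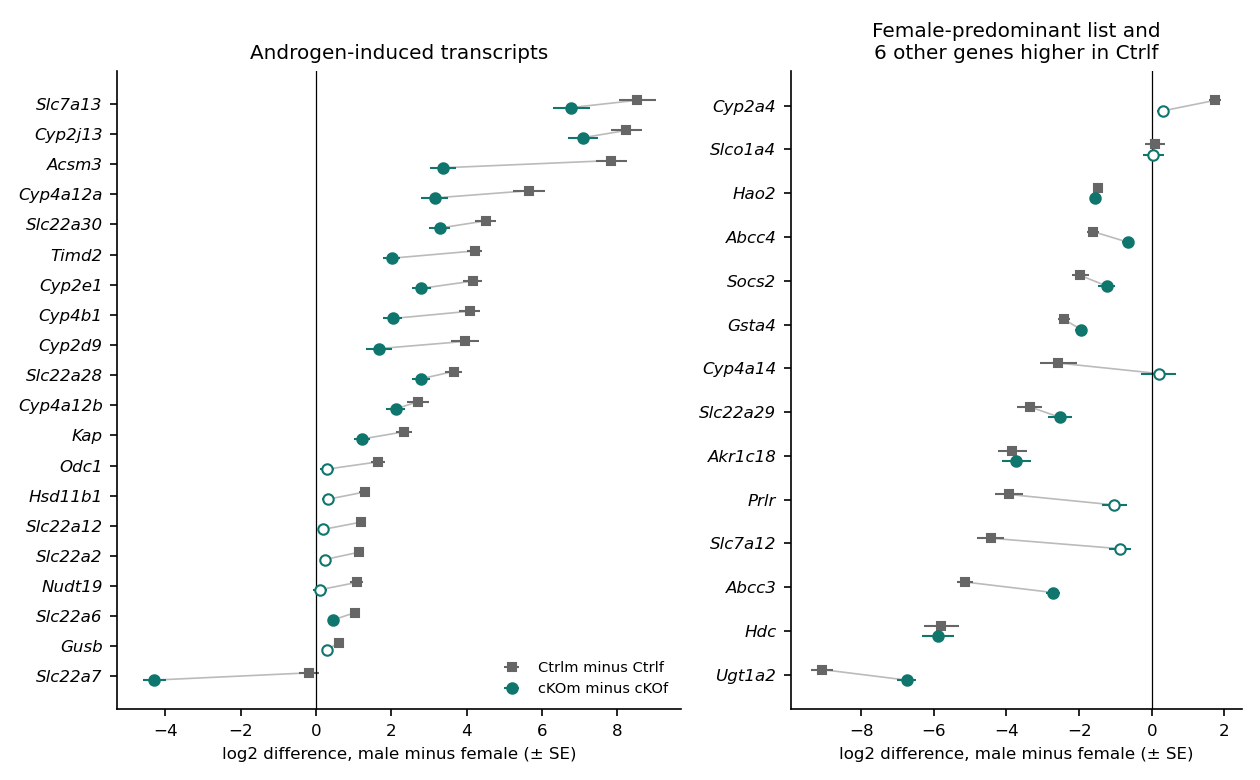
Male minus female log2 differences (± SE) of the 20 tested androgen-induced transcripts (left) and of the 8 female-predominant transcripts with 6 other genes that were higher in Ctrlf (right). Grey squares are Ctrl and green circles cKO kidneys, filled where the cKO difference had an adjusted p under 0.05. Green circles of the left panel lie closer to 0 than the squares, Slc22a7 excepted, and 13 are filled to the right of 0.

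Among the transcripts with the 12 largest differences in each direction, those higher in cKOm kidneys beside the list above were Ugt2b37, Ugt2b38, Ugt8a, Pzp, Cyp7b1, Serpina1a and H2-Q10. Ugt2b37 and Ugt2b38 are glucuronosyltransferases of steroids and bile acids, alike in sequence. Ugt2b37 ranged from 33.6 to 98.4 CPM (median 57.5) in cKOm and from 0.518 to 2.45 CPM (median 1.1) in cKOf kidneys (log2 difference 5.52, SE 0.36, edgeR adjusted p = 1.26e-11), and Ugt2b38 ranged from 376 to 669 CPM (median 492) in cKOm and from 52.5 to 81.7 CPM (median 62.1) in cKOf kidneys (log2 difference 3, SE 0.21, edgeR adjusted p = 5.68e-11). Ugt8a, which makes galactosylceramide, ranged from 81.6 to 111 CPM (median 92.8) in cKOm and from 9.46 to 17.3 CPM (median 11.9) in cKOf kidneys (log2 difference 2.94, SE 0.14, edgeR adjusted p = 1.48e-14). These 3 were without overlap and without an interaction past the threshold (adjusted p = 0.735, 0.336 and 0.394). Cyp7b1, the oxysterol 7-alpha-hydroxylase, ranged from 10.8 to 46.8 CPM (median 22.2) in cKOm and from 1.55 to 3.28 CPM (median 2.09) in cKOf kidneys against 101 to 198 CPM in Ctrlm kidneys (cKO log2 difference 3.4, SE 0.27, edgeR adjusted p = 5.77e-10, interaction adjusted p = 0.000195). Pzp, an alpha-2-macroglobulin-like protease inhibitor, ranged from 7.38 to 34.6 CPM (median 13.6) in cKOm and from 0.291 to 3.4 CPM (median 1.28) in cKOf kidneys against 141 to 245 CPM in Ctrlm kidneys (cKO log2 difference 3.68, SE 0.43, edgeR adjusted p = 8.19e-07, interaction adjusted p = 0.00108).

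Serpina1a, an alpha-1-antitrypsin copy, and H2-Q10, a class I histocompatibility gene, had medians of 29.6 and 3.52 CPM in Ctrlm kidneys, below those of cKOm kidneys. Serpina1a ranged from 42.8 to 61.2 CPM (median 51.8) in cKOm and from 2.81 to 6.88 CPM (median 4.82) in cKOf kidneys (log2 difference 3.37, SE 0.31, edgeR adjusted p = 7.69e-09), and its difference was larger than in Ctrl kidneys by 1.73 on the log2 scale (interaction adjusted p = 0.0139). H2-Q10 ranged from 7.37 to 30.5 CPM (median 14.8) in cKOm and from 0.846 to 3.73 CPM (median 1.62) in cKOf kidneys (log2 difference 3.09, SE 0.47, edgeR adjusted p = 3.49e-05). Both are also transcripts of liver, and both belong to families of near-identical genes. Hepatocyte markers summed to 134 to 588 CPM in cKOm and 63 to 151 CPM in cKOf kidneys, where Serpina1a itself is among the 15, and Alb ranged from 23 to 234 CPM (median 27.4) in cKOm and from 25.5 to 59.6 CPM (median 27.2) in cKOf kidneys, so the sexes overlapped in both. The calls for Serpina1a and H2-Q10 held without cKOm replicate 4 and with the liver level as a covariate, and the part of liver transcripts in them was not tested otherwise.

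**Figure D3:**
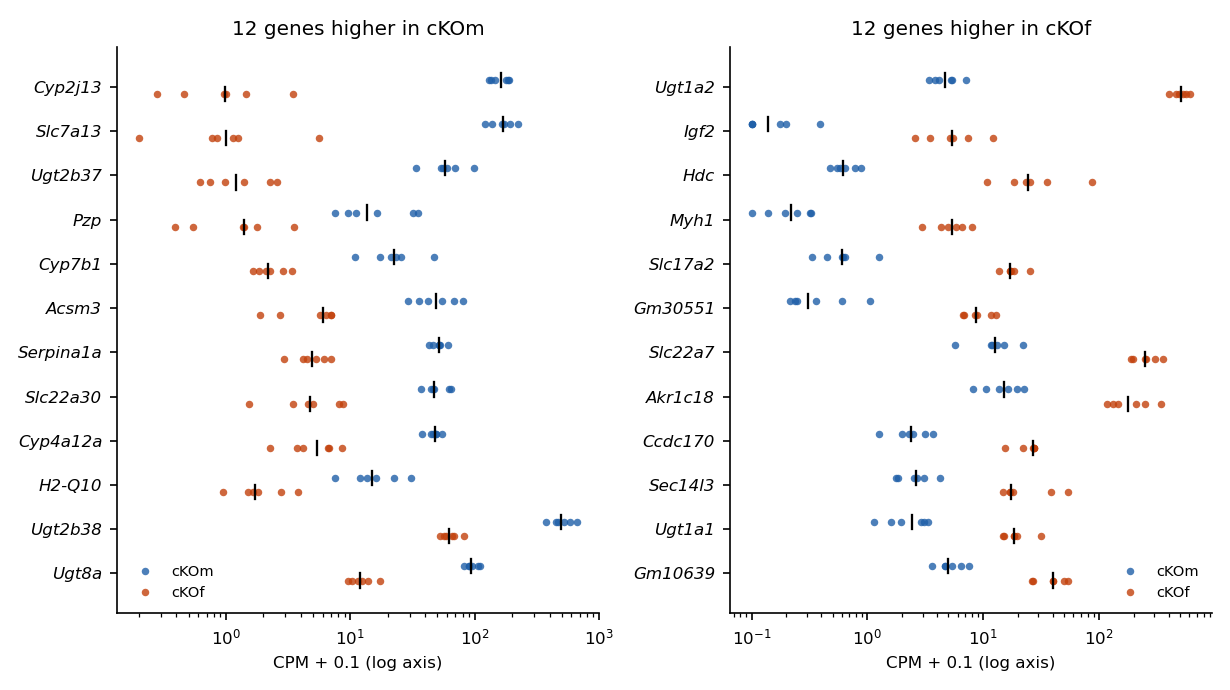
CPM per kidney (plus 0.1, log axis) of the 12 genes with the largest differences in each direction among genes without overlap whose mean reached 5 CPM in cKOm or cKOf kidneys. Points are single kidneys, blue cKOm and orange cKOf, and black ticks are medians. Blue and orange points do not overlap for any gene, which the choice of these genes required.

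Of the genes higher in cKOf kidneys, Ugt1a2 had the largest difference. It belongs to the Ugt1a locus, whose members have separate first exons and share the others, and it ranged from 3.32 to 7.05 CPM (median 4.62) in cKOm and from 404 to 611 CPM (median 515) in cKOf kidneys (log2 difference -6.75, SE 0.26, edgeR adjusted p = 2.29e-16). The groups did not overlap, and Ctrlm kidneys held 0.198 to 2.14 CPM, so that the difference was smaller in cKO kidneys (interaction adjusted p = 0.000199). Ugt1a1, the bilirubin glucuronosyltransferase of the same locus, ranged from 1.05 to 3.22 CPM (median 2.33) in cKOm and from 14.7 to 31.3 CPM (median 18.4) in cKOf kidneys (log2 difference -3.12, SE 0.32, edgeR adjusted p = 6.35e-08). Reads on the shared exons cannot be assigned to 1 member, which limits both values.

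Hdc, histidine decarboxylase, the enzyme that makes histamine, ranged from 0.378 to 0.775 CPM (median 0.509) in cKOm and from 10.7 to 86.9 CPM (median 24.3) in cKOf kidneys (log2 difference -5.89, SE 0.45, edgeR adjusted p = 3.94e-10), and the difference was -5.79 in Ctrl kidneys (interaction adjusted p = 0.966). Akr1c18, which inactivates progesterone, ranged from 8.01 to 22.6 CPM (median 14.9) in cKOm and from 117 to 346 CPM (median 178) in cKOf kidneys (log2 difference -3.73, SE 0.4, edgeR adjusted p = 1.32e-07), with -3.84 in Ctrl kidneys and no interaction past the threshold (adjusted p = 0.947). Slc17a2, a sodium-phosphate cotransporter homologue, ranged from 0.232 to 1.17 CPM (median 0.509) in cKOm and from 13.5 to 25.2 CPM (median 17) in cKOf kidneys (log2 difference -5.04, SE 0.35, edgeR adjusted p = 5.68e-11). All cKOf kidneys were above all cKOm kidneys for these 3 genes.

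Several genes of this group were close to absent in males. Igf2, the fetal growth factor, had 0 to 6 counts in each cKOm kidney and 50 to 257 in each cKOf kidney, and Myh1, a fast myosin heavy chain of skeletal muscle, had 0 to 5 and 64 to 162 counts. With so few counts in males, the fitted log2 differences (-6.19 and -5.39) depend on the prior count, though both passed (edgeR adjusted p = 9.64e-08 and 1.84e-05). Ctrl mice showed the same order for both, and the interaction did not pass (adjusted p = 0.778 and 0.678). The remaining genes of the 12 were Ccdc170 (-3.37), Sec14l3 (-3.36), Gm10639 (-2.9) and Gm30551 (-4.7 on the log2 scale), none with an interaction past the threshold, and Slc22a7, described further on.

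The list of female-predominant kidney transcripts held 8 genes, all tested. Of these, 3 (37.5%, against 4.88% of all genes) were higher in cKOf kidneys and none was higher in cKOm kidneys. Besides Akr1c18 these were the efflux pumps Abcc3 and Abcc4. Abcc3, a basolateral pump for conjugated bile acids and glucuronides, ranged from 11.1 to 19.5 CPM (median 15.8) in cKOm and from 76.9 to 144 CPM (median 98.4) in cKOf kidneys (log2 difference -2.72, SE 0.18, edgeR adjusted p = 2.09e-11), and the difference was smaller than in Ctrl kidneys by 2.42 (interaction adjusted p = 1.45e-06), where males held 2.24 to 5.19 CPM. Abcc4, an apical pump for organic anions and cyclic nucleotides, ranged from 94.8 to 150 CPM (median 114) in cKOm and from 154 to 208 CPM (median 191) in cKOf kidneys (log2 difference -0.66, SE 0.16, edgeR adjusted p = 0.00758).

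The other members were not called between cKOm and cKOf kidneys in the main model, although 4 of the 5 were called in Ctrl kidneys, against 18% of all genes. Prlr, the prolactin receptor, ranged from 100 to 154 CPM (median 142) in cKOm and from 212 to 342 CPM (median 265) in cKOf kidneys, without overlap, but its difference missed the threshold (log2 difference -1.03, SE 0.35, edgeR adjusted p = 0.0613). With the 12 cKO kidneys alone, by limma-voom or with the liver covariate it passed, with adjusted p values from 3.78e-05 to 0.0349. Slc7a12, a neutral amino acid transporter, ranged from 65.6 to 132 CPM (median 105) in cKOm and from 101 to 259 CPM (median 178) in cKOf kidneys (log2 difference -0.87, SE 0.31, edgeR adjusted p = 0.0746), and passed by limma-voom, in the 12 kidneys alone and without cKOf replicate 6 (0.0105 to 0.044). In Ctrlm kidneys Prlr ranged from 4 to 60 CPM and Slc7a12 from 2.29 to 20.6 CPM, so that the medians of cKOm kidneys lay between those of Ctrlm and of female kidneys. The interaction passed for Prlr (adjusted p = 0.000731) and for Slc7a12 (adjusted p = 1.87e-05).

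Cyp4a14, a fatty acid omega-hydroxylase and a target of PPARA, ranged from 935 to 1270 CPM (median 1060) in cKOm and from 831 to 1130 CPM (median 952) in cKOf kidneys, with overlap between the sexes (log2 difference 0.19, SE 0.48, edgeR adjusted p = 0.859). In Ctrl kidneys it ranged from 5.86 to 217 CPM in males and from 278 to 438 CPM in females, and the interaction adjusted p was 0.0236. Cyp2a4, a steroid 15-alpha-hydroxylase, was listed as female-predominant but was higher in Ctrlm kidneys in these data (1.75 on the log2 scale, edgeR adjusted p = 7.21e-09). In cKO kidneys it ranged from 208 to 380 CPM (median 315) in cKOm and from 200 to 297 CPM (median 247) in cKOf kidneys, with overlap (log2 difference 0.31, SE 0.16, edgeR adjusted p = 0.273). Slco1a4 was low in both sexes and did not pass (log2 difference 0.04, SE 0.29, edgeR adjusted p = 0.96).

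**Figure D4:**
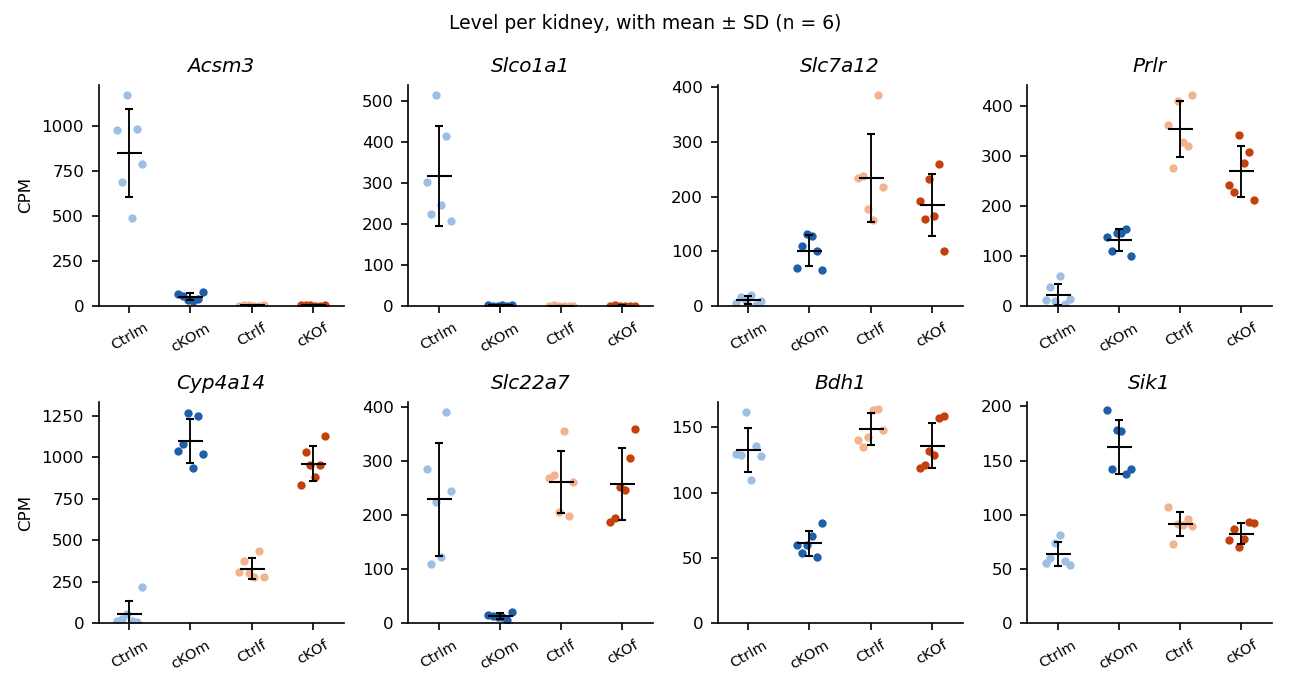
CPM per kidney of 8 genes in Ctrlm, cKOm, Ctrlf and cKOf mice (points), with the mean ± SD over 6 mice. The means of Acsm3 and Slco1a1 were highest and those of Slc7a12, Prlr and Cyp4a14 lowest in Ctrlm kidneys, while those of Slc22a7 and Bdh1 were lowest and that of Sik1 highest in cKOm kidneys.

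Differences that were called in cKO but not in Ctrl kidneys, with an interaction past the threshold, numbered 45, of which 26 were higher in cKOf and 19 in cKOm kidneys. Slc22a7, an organic anion transporter (chromosome 17, 46432183 to 46438457), had the largest. It ranged from 5.66 to 21.8 CPM (median 12.4) in cKOm and from 187 to 360 CPM (median 249) in cKOf kidneys, and from 109 to 391 CPM in Ctrlm and from 199 to 357 CPM in Ctrlf kidneys. Every cKOm kidney was thus below every kidney of the other 3 groups. The log2 difference was -4.29 (standard error 0.3, edgeR adjusted p = 5.68e-11), against -0.19 in Ctrl kidneys (adjusted p = 0.685), and the interaction adjusted p was 2.69e-07.

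Others of the 45, chosen after their values were seen, were lower in cKOm kidneys in the same way. Bdh1, the mitochondrial hydroxybutyrate dehydrogenase of ketone metabolism, ranged from 50.6 to 77.2 CPM (median 59.8) in cKOm and from 119 to 159 CPM (median 131) in cKOf kidneys (log2 difference -1.15, SE 0.1, edgeR adjusted p = 6.03e-09). Cyp51, the lanosterol demethylase of cholesterol synthesis, ranged from 174 to 232 CPM (median 186) in cKOm and from 322 to 412 CPM (median 363) in cKOf kidneys (log2 difference -0.92, SE 0.11, edgeR adjusted p = 5.23e-07), and Ace, the angiotensin-converting enzyme of the brush border and endothelium, ranged from 161 to 176 CPM (median 168) in cKOm and from 249 to 343 CPM (median 290) in cKOf kidneys (log2 difference -0.79, SE 0.12, edgeR adjusted p = 2.87e-05). Khk, ketohexokinase, which starts fructose breakdown, ranged from 178 to 201 CPM (median 179) in cKOm and from 239 to 392 CPM (median 260) in cKOf kidneys (log2 difference -0.58, SE 0.12, edgeR adjusted p = 0.00178). The cKOm kidneys did not overlap the cKOf kidneys for any of the 4, while Ctrlm and Ctrlf kidneys did, and the interaction passed for each (adjusted p from 0.000123 for Bdh1 to 0.0139 for Khk). Gstm1 of the glutathione S-transferases showed the same order and is given with its family.

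In the other direction, Apoa4, an apolipoprotein, ranged from 18.2 to 46.1 CPM (median 30.8) in cKOm and from 3.83 to 9.66 CPM (median 7.27) in cKOf kidneys (log2 difference 2.11, SE 0.24, edgeR adjusted p = 3.53e-07), Tmc5 ranged from 3.78 to 7.38 CPM (median 6.21) in cKOm and from 0.448 to 2.33 CPM (median 1.27) in cKOf kidneys (log2 difference 2.01, SE 0.3, edgeR adjusted p = 3.57e-05), and Fgf1, a fibroblast growth factor, ranged from 521 to 844 CPM (median 655) in cKOm and from 344 to 506 CPM (median 396) in cKOf kidneys (log2 difference 0.67, SE 0.11, edgeR adjusted p = 9.65e-05). These 3 were also chosen after their values were seen. In each, cKOm kidneys were above cKOf kidneys without overlap and the interaction passed (adjusted p = 0.00493, 0.0112 and 0.0194).

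For 12 genes the sexes differed in opposite directions in Ctrl and cKO kidneys, each past the threshold. Sik1, a salt-inducible kinase, had the smallest p among them. It ranged from 138 to 197 CPM (median 160) in cKOm and from 70 to 93.1 CPM (median 81.9) in cKOf kidneys, without overlap (log2 difference 0.97, SE 0.11, edgeR adjusted p = 6.88e-07), but was lower in males in Ctrl kidneys, where males ranged from 53.8 to 81.3 CPM and females from 73.2 to 107 CPM (log2 difference -0.52, adjusted p = 0.00126). The interaction adjusted p was 1.45e-06. Slc6a15, Abca5, Slc12a5, Slc22a14 and Slc34a2 also changed from lower to higher in males, with cKO differences from 0.51 to 1.1. Susd2, Pter, Mep1b, Fam213a, Tfec and Ggt1 changed from higher to lower in males, with cKO differences from -0.58 to -0.33. Susd2, a membrane protein, ranged from 87.1 to 137 CPM (median 114) in cKOm and from 153 to 205 CPM (median 163) in cKOf kidneys, without overlap (log2 difference -0.58, SE 0.12, edgeR adjusted p = 0.00108). Of the proximal brush border enzymes in this group, Ggt1 is the gamma-glutamyl transferase and Mep1b a meprin subunit. The cKO calls of Ggt1, Slc34a2, Tfec and Slc22a14 were lost under 10, 11, 5 and 3 of 21 alternatives, those of Ggt1 and Slc34a2 also without cKOf replicate 6 or cKOm replicate 4. Besides Sik1, the 12 were singled out after their values were seen.

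Of the 10 interactions with the smallest p, 7 were ones of transcripts higher in Ctrlm kidneys whose difference was smaller in cKO kidneys, Acsm3 among them. Serpinf2, the plasmin inhibitor, ranged from 71 to 92.9 CPM (median 79.2) in cKOm and from 33 to 40.5 CPM (median 39.3) in cKOf kidneys (log2 difference 1.08, SE 0.11, edgeR adjusted p = 5.09e-08), against 2.7 in Ctrl kidneys. Amacr, the peroxisomal and mitochondrial racemase of branched-chain acyl-CoA and bile acid intermediates, ranged from 100 to 118 CPM (median 108) in cKOm and from 62.2 to 84.7 CPM (median 68.1) in cKOf kidneys (log2 difference 0.62, SE 0.09, edgeR adjusted p = 3.3e-05), against 1.97. Fmo5, a flavin monooxygenase, ranged from 39.4 to 56.9 CPM (median 44.3) in cKOm and from 12.2 to 22.1 CPM (median 15.9) in cKOf kidneys (log2 difference 1.48, SE 0.14, edgeR adjusted p = 2.02e-08), against 3.18, and Cpe, carboxypeptidase E, ranged from 19.2 to 27.6 CPM (median 21.4) in cKOm and from 14.2 to 17.2 CPM (median 16.8) in cKOf kidneys (log2 difference 0.48, SE 0.13, edgeR adjusted p = 0.0141), against 1.95. These 4 still differed between the sexes without overlap. Csad, which makes hypotaurine for taurine synthesis, and Acy3, the aminoacylase of mercapturates, overlapped in cKO kidneys and were not called (log2 differences -0.16 and 0.12, edgeR adjusted p = 0.257 and 0.672), while in Ctrl kidneys their differences were 0.85 and 1.76. The interaction adjusted p was 8.48e-06 for both.

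Of 25 genes for hormone receptors and their signalling, 21 were tested and 4 (19%, against 9.32% of all genes) differed, 3 higher in cKOm and 1 higher in cKOf kidneys. Esr1, estrogen receptor alpha, ranged from 16.5 to 34.8 CPM (median 25.4) in cKOm and from 7.32 to 10.7 CPM (median 9.65) in cKOf kidneys, higher in every cKOm than in every cKOf kidney (log2 difference 1.48, SE 0.14, edgeR adjusted p = 2.9e-08), as it was in Ctrl kidneys (1.03, interaction adjusted p = 0.297). Igf1r, the receptor of insulin-like growth factor, was higher in cKOm kidneys (log2 difference 0.47, SE 0.12, edgeR adjusted p = 0.0139). Stat5a, a signal transducer of prolactin and growth hormone receptors, was also higher (log2 difference 0.44, SE 0.13, edgeR adjusted p = 0.0363), a call lost under 8 of 21 alternatives with adjusted p values up to 0.0872. Socs2, the feedback inhibitor of these receptors and itself a STAT5 target, was lower in cKOm kidneys and ranged from 7.94 to 21.8 CPM (median 15.7) in cKOm and from 30.6 to 52.1 CPM (median 35.8) in cKOf kidneys (log2 difference -1.24, SE 0.24, edgeR adjusted p = 0.000642).

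Of the receptors and regulators without a call, Ghr, Nr3c1, Nr3c2, Thra, Thrb, Ppara, Jak2, Stat5b, Cish, Igf1, Nr1i2, Cux2, Bcl6 and Gper1 overlapped between the sexes, while Hnf4a did not overlap yet missed the threshold (log2 difference 0.21, SE 0.08, edgeR adjusted p = 0.073). Esr2, Pgr and Nr1i3 did not reach the level needed for a test.

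Enzymes that make and break down steroids often differed. Of 34 genes listed, 21 were tested and 12 (57.1%) passed, 8 higher in cKOm and 4 higher in cKOf kidneys. Akr1d1, the steroid 5-beta-reductase, ranged from 21.9 to 50.4 CPM (median 38.6) in cKOm and from 8.43 to 16.1 CPM (median 12.7) in cKOf kidneys (log2 difference 1.56, SE 0.21, edgeR adjusted p = 5.13e-06), and Hsd17b2, which oxidises estradiol and testosterone to weaker forms, ranged from 12.2 to 17.1 CPM (median 16) in cKOm and from 3.97 to 9.06 CPM (median 5.58) in cKOf kidneys (log2 difference 1.37, SE 0.2, edgeR adjusted p = 2.67e-05). Both were without overlap. The interaction of Hsd17b2 (adjusted p = 0.0446) was past the threshold under 13 of 32 alternatives. With Cyp7b1 and Akr1c18, described above, these were the largest differences of the list.

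**Figure D5:**
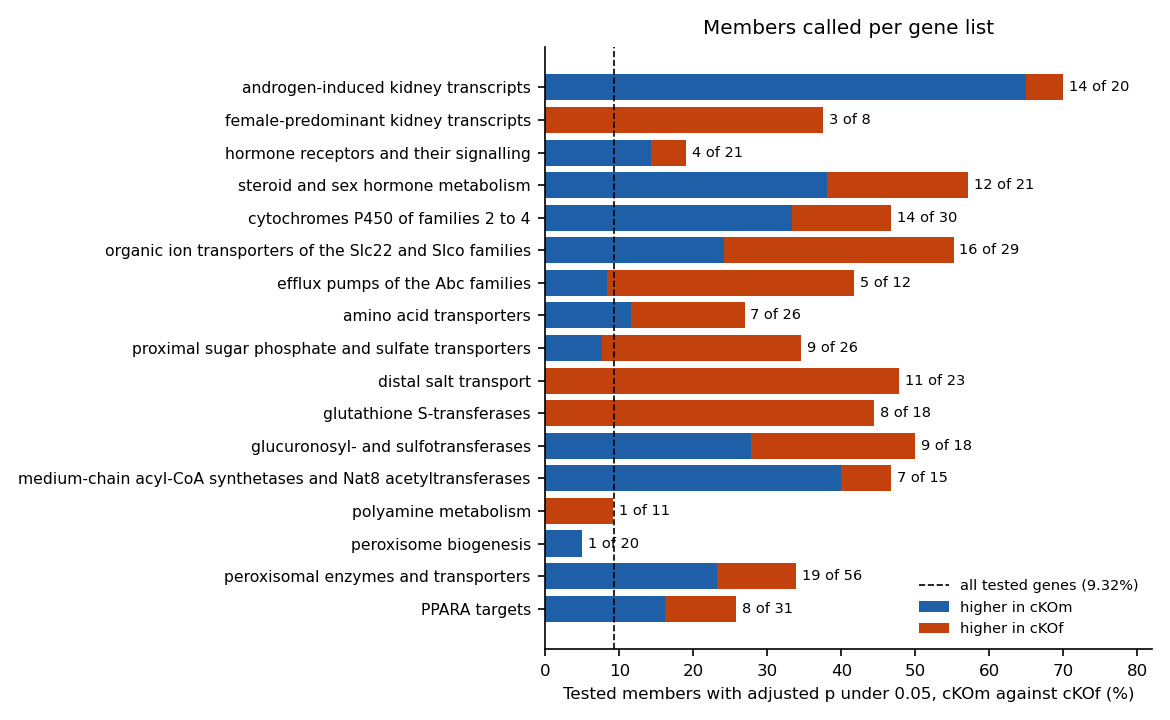
Share of tested members of each of 17 gene lists (horizontal axis, percent) with an adjusted p under 0.05 between cKOm and cKOf kidneys, split by direction (blue higher in cKOm, orange higher in cKOf), with the number of members beside each bar. The dashed line is the share over all 13513 genes, 9.32%. Androgen-induced transcripts reach 70.0%, and called members for distal salt transport and glutathione S-transferases were all higher in cKOf kidneys.

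Cytochromes P450 of families 2 to 4, which oxidise fatty acids, steroids and foreign compounds, differed in 14 of 30 tested members (46.7%), 10 higher in cKOm and 4 higher in cKOf kidneys. The largest were androgen-induced members described above, and the largest of the other direction was that of Cyp4f14, which hydroxylates leukotriene B4. Cyp4f14 ranged from 0.0878 to 2.71 CPM (median 1.21) in cKOm and from 4.55 to 7.39 CPM (median 5.93) in cKOf kidneys, without overlap (log2 difference -2.16, SE 0.39, edgeR adjusted p = 0.00043). Among the Slc22 and Slco transporters, 16 of 29 tested (55.2%) differed, 7 higher in cKOm and 9 higher in cKOf kidneys. Slco4c1, a basolateral transporter of digoxin and thyroid hormone that was chosen after its values were seen, ranged from 33.7 to 57.2 CPM (median 48.5) in cKOm and from 8.39 to 13.6 CPM (median 9.29) in cKOf kidneys (log2 difference 2.2, SE 0.17, edgeR adjusted p = 5.77e-10), and Slc22a19, chosen likewise, ranged from 20.9 to 36.4 CPM (median 28.4) in cKOm and from 84 to 147 CPM (median 124) in cKOf kidneys (log2 difference -2.03, SE 0.18, edgeR adjusted p = 8.72e-09). Neither of these transporters overlapped between the sexes.

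Efflux pumps of the Abc families were mostly higher in cKOf kidneys where they differed (5 of 12 tested, 41.7%, 4 of them higher in cKOf). With Abcc3 and Abcc4, the P-glycoprotein copies Abcb1a and Abcb1b were higher in females. Abcb1a ranged from 3.07 to 7.59 CPM (median 6.53) in cKOm and from 12.5 to 16.3 CPM (median 13.6) in cKOf kidneys (log2 difference -1.3, SE 0.23, edgeR adjusted p = 0.000273), and Abcb1b ranged from 16.4 to 38 CPM (median 27.8) in cKOm and from 41.3 to 55.2 CPM (median 46.7) in cKOf kidneys (log2 difference -0.69, SE 0.19, edgeR adjusted p = 0.0172). The interaction passed for Abcb1b (adjusted p = 0.0123) and not for Abcb1a (adjusted p = 0.798).

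Amino acid transporters differed in 7 of 26 tested members (26.9%), 3 higher in cKOm and 4 higher in cKOf kidneys. Of the 3, 1 (Slc7a13) remained without cKOf replicate 6, without cKOm replicate 4 or with the liver covariate. Beside Slc7a13, Slc6a18, the apical glycine and imino acid carrier, ranged from 252 to 338 CPM (median 290) in cKOm and from 482 to 584 CPM (median 513) in cKOf kidneys (log2 difference -0.86, SE 0.11, edgeR adjusted p = 2.34e-06), and Slc3a1, the heavy subunit of the cystine carrier, ranged from 391 to 507 CPM (median 478) in cKOm and from 561 to 687 CPM (median 639) in cKOf kidneys (log2 difference -0.44, SE 0.07, edgeR adjusted p = 0.000108). Both were higher in every cKOf kidney. Slc7a6 overlapped (log2 difference -0.69, SE 0.2, edgeR adjusted p = 0.0254) and lost its call under 10 alternatives. For sugar, phosphate, sulfate and carboxylate transport, 9 of 26 tested members (34.6%) differed, 2 higher in cKOm and 7 higher in cKOf kidneys. Slc5a10, a sodium-coupled mannose and fructose carrier, ranged from 28.5 to 69 CPM (median 44.6) in cKOm and from 85.2 to 131 CPM (median 102) in cKOf kidneys (log2 difference -1.2, SE 0.17, edgeR adjusted p = 1.94e-05), Slc13a2, the apical citrate carrier, ranged from 32.3 to 41.6 CPM (median 36.1) in cKOm and from 52.1 to 70.1 CPM (median 58.4) in cKOf kidneys (log2 difference -0.69, SE 0.11, edgeR adjusted p = 4.32e-05), and Slc5a8, which takes up lactate, ranged from 172 to 238 CPM (median 209) in cKOm and from 87 to 135 CPM (median 116) in cKOf kidneys (log2 difference 0.85, SE 0.12, edgeR adjusted p = 2.17e-05). Slc17a2, described above, had the largest difference of this list.

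Of 23 tested genes of distal salt transport, 11 (47.8%) were higher in cKOf kidneys, none was higher in cKOm kidneys and 12 were not called. The median log2 difference of the 23 was -0.25, 7 were higher in every cKOf kidney, and 12 had been higher in Ctrlf kidneys. No interaction passed in this list, which does not show that the differences were equal. On simulated data that test called only 12 of 200 changes of 0.5 on the log2 scale. Those genes were drawn at random from all above 1 CPM and changed in cKOm only. How often the test would call such a change in this list was not tested. Scnn1g, the gamma subunit of the epithelial sodium channel, ranged from 31.1 to 44.9 CPM (median 34.3) in cKOm and from 46.7 to 55.5 CPM (median 53.7) in cKOf kidneys (log2 difference -0.55, SE 0.09, edgeR adjusted p = 5.96e-05) without overlap. Bsnd, the chloride channel subunit barttin, ranged from 45.3 to 58.2 CPM (median 51.7) in cKOm and from 52.8 to 76.2 CPM (median 74.7) in cKOf kidneys, with overlap (log2 difference -0.46, SE 0.11, edgeR adjusted p = 0.00625). The water channels Aqp2 and Aqp3 of the collecting duct overlapped between the sexes (-0.56 and -0.39 on the log2 scale, edgeR adjusted p = 0.0406 and 0.0496), and their calls were lost under 10 and 13 alternatives. The number of members called was 6 without cKOf replicate 6 and 9 without cKOm replicate 4.

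Summed markers of the collecting duct and the distal convoluted tubule were also higher in cKOf kidneys. Those of the thick ascending limb overlapped between the sexes, at 6180 to 7080 CPM in cKOm and 6290 to 7680 CPM in cKOf kidneys. Those of intercalated cells overlapped too (245 to 324 and 279 to 339 CPM). The marker lists share members with that of distal salt transport. Aqp2, Aqp3, Avpr2 and Scnn1g are also collecting duct markers, and Slc12a3 and Wnk4 distal convoluted tubule markers. Slc12a1 and Umod are also thick ascending limb markers. The summed level of 6 markers of collecting duct principal cells was 272 to 349 CPM in cKOm and 364 to 503 CPM in cKOf kidneys, and that of 5 markers of the distal convoluted tubule was 1980 to 2480 and 2510 to 2990 CPM, both without overlap. Endothelial markers (6 genes) summed to 384 to 419 and 440 to 478 CPM, also without overlap. Proximal tubule markers (12 genes, Kap, Slc7a13, Slc22a30 and Cyp7b1 among them) summed to 13300 to 16700 and 12400 to 14200 CPM. Kap alone averaged 6800 CPM in cKOm and 2920 CPM in cKOf kidneys, so the order of these sums rests largely on it. Of the 12 markers, the 4 named were called higher in cKOm kidneys, 2 were called higher in cKOf kidneys and 6 were not called. In whole kidneys, fewer cells of a type and less RNA per cell cannot be told apart. The part of the segments' share in the differences of single genes was not tested. Sums for macrophages, interferon-induced genes and proliferation overlapped between the sexes, and the adrenal cortex enzymes Cyp11b1 and Cyp11b2 were at 0 in every cKO kidney. The 8 injury markers summed to 1140 to 1640 CPM in cKOm and 1800 to 2350 CPM in cKOf kidneys. Spp1, osteopontin, made up most of this sum and ranged from 878 to 1320 CPM (median 1010) in cKOm and from 1470 to 1900 CPM (median 1580) in cKOf kidneys (log2 difference -0.6, SE 0.14, edgeR adjusted p = 0.00405), while the injury markers Havcr1 and Lcn2 were low, at up to 2.99 and 3.78 CPM.

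Conjugating enzymes split by family. Glutathione S-transferases differed in 8 of 18 tested members (44.4%), all higher in cKOf kidneys. Gsta4, which conjugates the lipid aldehyde hydroxynonenal, ranged from 29.8 to 42.3 CPM (median 37.1) in cKOm and from 89.3 to 216 CPM (median 130) in cKOf kidneys (log2 difference -1.94, SE 0.17, edgeR adjusted p = 3.07e-09). Gsta2 ranged from 116 to 189 CPM (median 166) in cKOm and from 299 to 464 CPM (median 331) in cKOf kidneys (log2 difference -1.12, SE 0.13, edgeR adjusted p = 4.16e-07), and Gsto1 ranged from 30.9 to 39.1 CPM (median 34.6) in cKOm and from 56.7 to 89.1 CPM (median 60.6) in cKOf kidneys (log2 difference -0.89, SE 0.11, edgeR adjusted p = 1.11e-06). All cKOf kidneys were above all cKOm kidneys in the 3 genes, and none of them had an interaction past the threshold. Gstm1 was the one member with an interaction (adjusted p = 0.00018). It ranged from 133 to 190 CPM (median 150) in cKOm and from 221 to 320 CPM (median 244) in cKOf kidneys (log2 difference -0.71, SE 0.1, edgeR adjusted p = 1.16e-05), while Ctrlm and Ctrlf kidneys overlapped and did not differ past the threshold (log2 difference 0.21, adjusted p = 0.145).

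Glucuronosyl- and sulfotransferases differed in 9 of 18 tested members (50%), 5 higher in cKOm (Ugt2b37, Ugt2b38, Ugt2b5, Ugt2a3 and Ugt8a) and 4 higher in cKOf kidneys (Ugt1a2, Ugt1a1, Ugt1a6a and Ugt2b34). Called members of the Ugt1a locus were thus higher in cKOf kidneys, and those of Ugt2 and Ugt8 higher in cKOm kidneys except Ugt2b34. Of the medium-chain acyl-CoA synthetases and Nat8 acetyltransferases, 7 of 15 tested (46.7%) differed, 6 higher in cKOm kidneys. Nat8f2 ranged from 78.7 to 122 CPM (median 86.1) in cKOm and from 23.7 to 34.5 CPM (median 30.6) in cKOf kidneys (log2 difference 1.62, SE 0.16, edgeR adjusted p = 5.03e-08), and Nat8, which makes mercapturates by acetylating cysteine conjugates, ranged from 40.3 to 58.1 CPM (median 45.5) in cKOm and from 15.6 to 31.1 CPM (median 20) in cKOf kidneys (log2 difference 1.15, SE 0.25, edgeR adjusted p = 0.00284). Acy1, which removes the acetyl group from amino acids, went the other way and ranged from 32 to 37.5 CPM (median 34.3) in cKOm and from 65.8 to 115 CPM (median 89.6) in cKOf kidneys (log2 difference -1.34, SE 0.13, edgeR adjusted p = 2.58e-08), with an interaction adjusted p of 0.00234. In polyamine metabolism 1 of 11 tested members (9.09%) differed, a share near that of all genes, and this was Arg2, the mitochondrial arginase, which ranged from 2.46 to 8.32 CPM (median 4.15) in cKOm and from 8.58 to 16.8 CPM (median 13.8) in cKOf kidneys (log2 difference -1.41, SE 0.23, edgeR adjusted p = 0.000107).

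Of 20 genes of peroxisome biogenesis, all tested, 1 (5%) differed between the sexes, which is close to the share of all genes for a list this short. Of 63 peroxisomal enzymes and transporters, 56 were tested and 19 (33.9%, against 9.32% of all genes) differed, 13 higher in cKOm and 6 higher in cKOf kidneys. In Ctrl kidneys 29 differed (51.8%, against 18% of all genes).

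Hao2, a hydroxyacid oxidase of peroxisomes, ranged from 153 to 297 CPM (median 204) in cKOm and from 566 to 734 CPM (median 687) in cKOf kidneys (log2 difference -1.56, SE 0.14, edgeR adjusted p = 7.69e-09), against -1.47 in Ctrl kidneys (interaction adjusted p = 0.884). Baat, which conjugates bile acids and fatty acids, and Hacl1, the lyase of alpha-oxidation, were lower in every cKOm than in every cKOf kidney (-1.42 and -1.1 on the log2 scale, edgeR adjusted p = 0.00612 and 0.00212). Acot3, a peroxisomal thioesterase, ranged from 55.3 to 78 CPM (median 62.5) in cKOm and from 98 to 144 CPM (median 131) in cKOf kidneys (log2 difference -0.98, SE 0.15, edgeR adjusted p = 3.7e-05), against -1.99 in Ctrl kidneys (interaction adjusted p = 0.00541).

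Among 31 tested PPARA targets, 8 (25.8%) differed, 5 higher in cKOm and 3 higher in cKOf kidneys. Acadm, the medium-chain acyl-CoA dehydrogenase of mitochondria, ranged from 960 to 1020 CPM (median 976) in cKOm and from 1300 to 2090 CPM (median 1610) in cKOf kidneys, lower in every cKOm kidney (log2 difference -0.74, SE 0.13, edgeR adjusted p = 0.000301). Cyp4a31, an omega-hydroxylase, ranged from 717 to 1090 CPM (median 929) in cKOm and from 576 to 678 CPM (median 618) in cKOf kidneys, higher in every cKOm kidney (log2 difference 0.54, SE 0.13, edgeR adjusted p = 0.00562), and Cyp4a14, the target with the largest sex difference in Ctrl kidneys among those described here, did not pass in cKO kidneys, as given above. The called targets thus differed in both directions.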

How the data were processed

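Poly(A) RNA of 24 whole mouse kidneys was sequenced, 6 per sex and genotype. The values the authors deposited are raw counts of reads per gene, 1 file per kidney, made with cutadapt 1.8, STAR 2.5.3a and HTSeq 0.9.1 on GRCm38 per the submitters' processing notes; whether counting used the strand is not given in the sources used here. The 5 closing lines of each file, which name no gene (among them 27.4 to 34.81% of alignments that were not unique), were set aside. Names and positions came from GENCODE vM21 (GRCm38; 55154 of 55335 identifiers matched).

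Autosomal genes that reached 1 CPM in 6 or more of the 12 cKO kidneys were fitted in 1 model of the 4 groups over all 24 kidneys with edgeR 4.0.16 (R 4.3.3; TMM, quasi-likelihood test). Every adjusted p is the Benjamini-Hochberg value over 13513 genes from edgeR unless another tool is named, with a threshold of 0.05, and the interaction is the cKO minus the Ctrl sex difference in the same fit. Single values were compared by a two-sided exact permutation test over all 924 arrangements of 6 against 6 kidneys. CPM values and their medians are on the TMM scale, except in the filter and the detection floor, which use the plain library size. Alternatives were limma-voom (limma 3.58.1), DESeq2 1.42.0, RLE factors, other filters, a liver transcript score, a replicate block, the 12 kidneys of a comparison alone, and each kidney left out. The model was tested on simulated data: of 200 genes changed by 1 on the log2 scale, 176 were called, with 4 false calls, and of 200 changed by 0.5, 93 with 7. The interaction test called 138 of the first 200 and 12 of the second. An interaction that did not pass therefore does not show that the differences were equal. The p-values of the model measure the spread between mice, estimated for each gene over all 4 groups. The spread among Ctrl kidneys therefore also enters the tests between cKOm and cKOf kidneys. A gene not called there can pass with the 12 cKO kidneys fitted alone, as Prlr did.

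Named are Pex5 and genes that check sex; for each sex the 12 largest differences past the threshold without overlap and with a mean of at least 5 CPM; the 10 interactions with the smallest p; the members of the androgen, female and receptor lists; and up to 4 called members of every other list. Members and lists were chosen with earlier results of these data known. Promoters are the 250 bases upstream of RefSeq starts on GRCm38.p6, whose starts matched a transcript of the gene for 81.5%. A few genes of the lists are not reported here.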

Additional observations from a re-analysis of the deposited data

Results flagged for a closer look

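The sex difference of 367 genes differed between cKO and Ctrl kidneys by the interaction test, 39 of them genes named by the rule and 18 genes singled out after their values were seen (edgeR adjusted p from 2.69e-07 to 0.0449). The values that follow are the male minus female log2 difference in cKO kidneys minus that in Ctrl kidneys. Among transcripts listed as androgen-induced they were Acsm3 (-4.48), Cyp4a12a (-2.51), Cyp2d9 (-2.3), Timd2 (-2.21), Cyp4b1 (-2.04), Cyp2e1 (-1.36), Odc1 (-1.35), Kap (-1.12), Slc22a12 (-1), Hsd11b1 (-0.99), Nudt19 (-0.96), Slc22a2 (-0.9), Slc22a6 (-0.58) and Slc22a7 (-4.1), the last not called between Ctrlm and Ctrlf kidneys. Among female-predominant transcripts they were Slc7a12 (3.57), Prlr (2.91), Cyp4a14 (2.77), Abcc3 (2.42), Abcc4 (0.95) and Cyp2a4 (-1.44). Of the other genes named by the rule, the value was negative for Pzp (-3.57), Cyp7b1 (-2.45), Fmo5 (-1.7), Acy3 (-1.64), Serpinf2 (-1.62), Cpe (-1.47), Amacr (-1.35), Hsd17b2 (-1.05), Csad (-1.01), Acy1 (-0.93) and Gstm1 (-0.93), and positive for Ugt1a2 (2.33), Serpina1a (1.73), Sik1 (1.5), Arg2 (1.26), Abcb1b (1.16), Acot3 (1.01), Stat5a (0.72) and Nr1i2 (0.71). Of all these, the interaction was past the threshold under 10 of 32 alternatives for Slc22a6, 13 for Hsd17b2, 17 for Stat5a, 18 for Nudt19, 19 for Kap, 23 for Arg2 and 31 for Abcc4, Cyp2d9, Cyp4a12a and Nr1i2, and under all 32 for the others (all 31 that gave a value for Cyp4a14). Of the genes singled out later it was negative for Ggt1 (-1.06), Bdh1 (-0.99), Susd2 (-0.98), Mep1b (-0.89), Cyp51 (-0.87), Ace (-0.79), Pter (-0.79), Tfec (-0.77), Fam213a (-0.75) and Khk (-0.73), and positive for Slc22a14 (2.4), Tmc5 (1.9), Slc12a5 (1.89), Slc6a15 (1.78), Apoa4 (1.6), Slc34a2 (1.49), Abca5 (0.92) and Fgf1 (0.63).

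In 18 of 248 groups of 6 kidneys 1 kidney lay far from the others by Dixon's test, which flags about 1 in 20 groups by chance. Replicate 6 of cKOf accounted for 6 of these, being high for Gsta2 (464 CPM), Gsto1 (89.1), Nr1i2 (17.6), Ggt1 (911), Khk (392) and Susd2 (205). Replicate 2 of cKOf was high for the male transcripts Cyp2j13 (3.35 CPM), Slc7a13 (5.47) and Slco1a1 (2.36), all still far below Ctrlm kidneys. Replicate 5 of cKOf was high for Hdc (86.9 CPM) and low for Slc22a14 (0.632), and replicate 1 was low for Serpinf2 (33.0) and high for Ugt1a1 (31.3). Of the cKOm kidneys, replicate 5 was low for Kap (4620 CPM) and high for Nr3c1 (204), replicate 6 was high for Fmo5 (56.9), replicate 4 for Slc17a2 (1.17) and replicate 3 for Slc12a5 (7.73).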

How the results depend on the processing

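Depth limited what could be read to genes above 3 counts, or 0.1189 to 0.1548 CPM, and the number of mice to differences above the spread among 6. Between cKOm and cKOf kidneys, 1249 to 1605 genes passed under limma-voom, DESeq2, RLE factors, the filter on 1 kidney, the liver covariate, the sex chromosomes kept and the 12 kidneys alone, 1082 without a filter, and 959 to 1175 with 1 cKO kidney left out. With Ctrlm and Ctrlf, the liver covariate gave 1605 genes in place of 2428, and the 12 kidneys alone gave 1844. Leaving out 1 kidney gave 2086 to 2669 genes, and 280 to 459 interactions. Of these runs, those without a Ctrl kidney were added after seeing the data. DESeq2 gave 534 interactions. Of 73 named genes called between cKOm and cKOf kidneys, 69 were called under all 21 alternatives, the exceptions being Aqp2, Aqp3, Slc7a6 and Stat5a, and none reversed. Of 39 named genes with an interaction, 29 were called under all 32 alternatives (31 for Cyp4a14) and 8 were lost with the liver covariate.

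The replicate numbers were not used to pair mice in the main model. Same-numbered cKOm and cKOf kidneys correlated from -0.08 to 0.02 in their deviations from the group mean, and Ctrl kidneys from -0.14 to 0.13. A weak pairing would not show in these values. With a replicate block 1090 genes differed in cKO and 2220 in Ctrl kidneys, with 276 interactions.

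Pex5 differed by -0.11 CPM, by 0.19 with RLE factors, and from -1.27 to 1.01 with 1 kidney left out; on the log2 scale it was 0.00 by limma-voom and in the 12 kidneys alone, 0.01 with DESeq2, RLE factors and both other filters, and -0.04 to 0.03 with 1 left out. Signs that turned belonged to genes that were not called. Bcl6 was -0.20 by limma-voom (-0.23 to 0.47 with 1 kidney left out), and Nr1i2 was 0.00 without a filter and 0.01 with the liver covariate (-0.04 to 0.06). With 1 kidney left out Igf1 ran from -0.15 to 0.01, Jak2 from -0.08 to 0.02, Nr3c2 from -0.04 to 0.10, Slco1a4 from -0.06 to 0.14 and Stat5b from -0.01 to 0.09. The cause was not tested.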
